A study of Mus musculus with 6 samples.

Results

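The genes described here are 10 genes of myoblast fusion and cell contact, taken by symbol from the 55414 gene identifiers of the count table. They are the fusion proteins Mymk and Mymx, the fusion inhibitor Tmem182, the cadherins Cdh15 and Cdh2, and the contact receptors Ncam1, Cdon, Boc, Adgrb1 and Adgrb3. All 10 have a row in the table, 8 passed the filter on low counts in both comparisons, and Adgrb1 and Adgrb3 did not. RNA was sequenced from C2C12, a mouse myoblast line grown in medium with serum and labelled wild type. Of 6 libraries, 3 came from cells given an siRNA against Usf2 (siUsf2 1 to 3) and 3 from cells given the control siRNA-NC (siControl 1 to 3), all transfected with lipofectamine. The labels give neither the time after transfection nor whether replicates were separate cultures, so p-values measure the spread between these libraries, which may be technical. The comparison asks how these genes differ when USF2, a transcription factor that binds E-box sequences, is knocked down.

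Myoblasts that stop dividing align, adhere and merge into multinucleated myotubes. Cadherins and immunoglobulin-type receptors hold the cells together and signal inward, actin and small GTPases push the membranes close, and the muscle proteins myomaker and myomixer act on the lipid bilayers, early and late in the merger. Myomaker and myomixer are made mainly by cells that have begun to differentiate, while the adhesion receptors are already present in dividing myoblasts.

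The targeted gene was checked first. Usf2 (chr7:30945248-30956803, minus strand) had 17.1, 15.3 and 30.8 CPM (reads of the gene scaled to the total count of the library) in siUsf2 1 to 3, against 26.2, 31.2 and 23.0 CPM in siControl 1 to 3. The Usf2 level of the library labelled siUsf2 3 thus lay within the siControl range, against its label. siUsf2 1 and 2 were below every siControl library. Over all 6 libraries Usf2 did not pass (log2 -0.40, edgeR adjusted p = 0.702), and no test is given without siUsf2 3, since its Usf2 level is a reason for setting it apart. The library labelled siUsf2 3 was also the shallowest, with 3414565 counts against 14790997 to 17715250 in the other 5. Relative to siUsf2 1 and 2, its values shifted with exon number per transcript length over all genes tested, with median log2 ratios of -0.32, -0.24, -0.01 and 0.31 in 4 equal groups ordered by it. It is therefore shown apart. The measured fusion and contact genes were tested over all 6 libraries and over the 5 without siUsf2 3. The 5-library comparison sets siUsf2 1 and 2 against siControl 1 to 3. For most genes named from other lists, only the 5-library test is given. The myoblast markers Myod1, Myf5, Pax7, Des, Itga7 and Vim were all present, at a summed 4053 to 5265 CPM in siUsf2 and 4009 to 4771 CPM in siControl. Within that list 4 genes passed in the 5 libraries: Itga7 (log2 -0.45, edgeR adjusted p = 5.83e-04), Des (-0.35, adjusted p = 0.0146) and Myod1 (-0.29, adjusted p = 0.0387) fell and Myf5 (0.37, adjusted p = 0.0326) rose. In siUsf2 3 Des and Myod1 were within the siControl range and Itga7 above it, so those falls were seen in siUsf2 1 and 2 alone. The Itga7 call alone held in the 12 alternatives. Itga7 has 6.22 exons per kilobase of transcript, and the part of the siUsf2 3 shift in its value was not tested. The part of these marker changes in the results below was not tested. Markers of other cell types were low: the 4 epithelial markers summed to at most 1.17 CPM and the 4 leukocyte markers to at most 3.37 CPM in any library. The 4 endothelial markers, with Cdh5 and Kdr under 1 CPM, summed to 3.08 to 4.69 CPM in siUsf2 and 1.29 to 2.94 CPM in siControl. The fibroblast list was the exception, at 156 to 196 CPM in siUsf2 and 173 to 195 CPM in siControl, carried by Pdgfra and Dcn.

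In the 5 libraries, 6 of the 8 measured genes fell: Mymk, Mymx, Tmem182, Cdh15, Ncam1 and Cdh2 (edgeR quasi-likelihood test, Benjamini-Hochberg adjusted p below 0.05 over 17217 genes). Over all genes tested, 6.4% fell and 4.97% rose, so that 43.7% of the 1957 calls were higher ones; with upper-quartile normalization it was 55.5% of 2024, and the same 6 genes were called. Mymk, Mymx and Tmem182 fell most, from 2.96-fold to 5.25-fold, while the adhesion receptors that fell did so by 1.26-fold to 1.68-fold. Cdon and Boc, a pair of co-receptors, did not pass the test. The median log2 fold change over the 8 genes was -0.55, against -0.01 over all genes tested. With all 6 libraries Tmem182 fell and the other 7 did not pass, where 0.042% of 16662 genes fell and 0 rose by edgeR. There 1753 genes had an unadjusted p below 0.05, and DESeq2 called 296 genes higher. The signs of the 8 fold changes were the same in both comparisons.

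**Figure D1:**
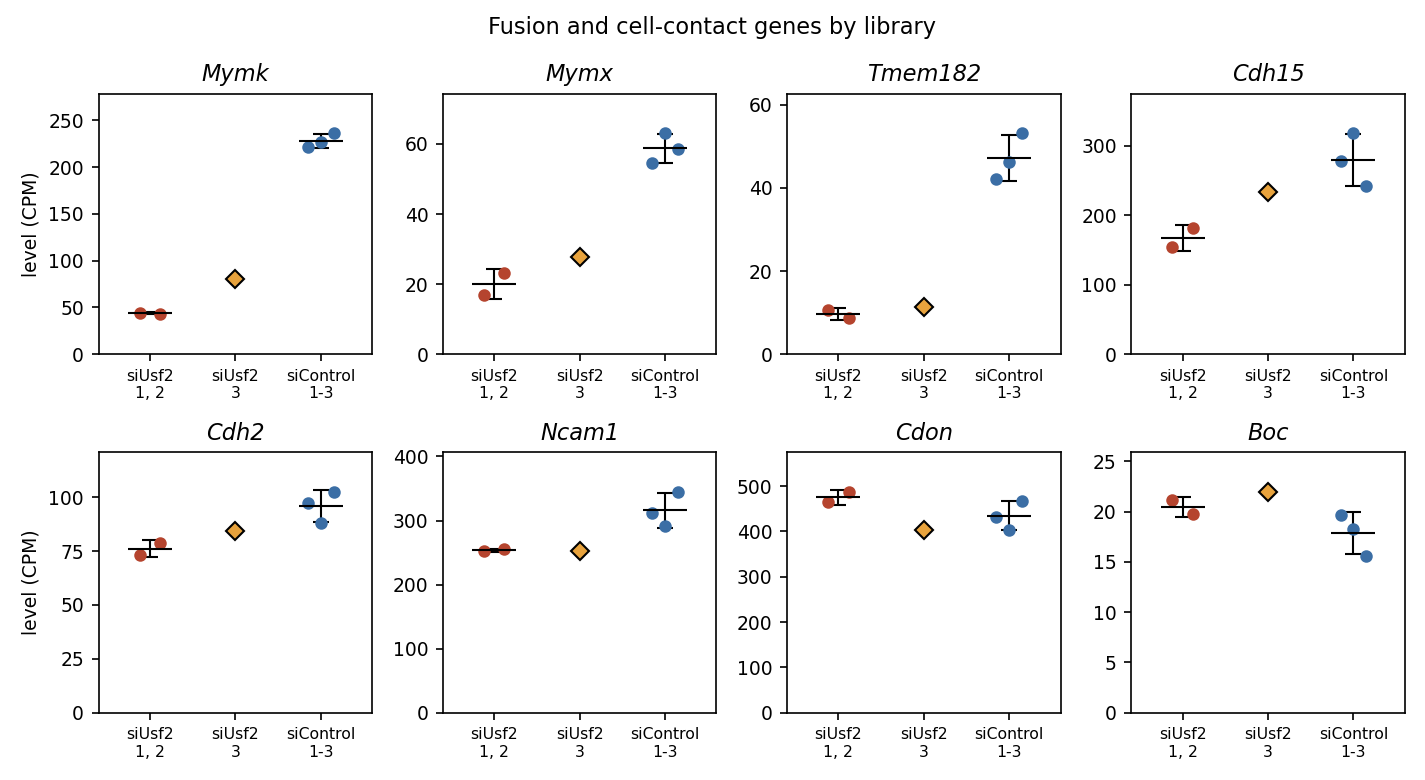
Level of each measured gene (CPM, linear axis from 0) in siUsf2 1 and 2, in the library labelled siUsf2 3 (diamond) and in siControl 1 to 3; each circle or diamond is 1 library, and the horizontal line and bars are mean and SD. All siUsf2 libraries lie below all siControl libraries for Mymk, Mymx, Tmem182, Cdh15, Cdh2 and Ncam1, and the diamond for Mymk, at 80.2 CPM, stands between the groups.

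Mymk encodes myomaker, a multipass membrane protein that both fusing cells need. The gene spans chr2:27061636-27072179 of GRCm38 (minus strand, 5 exons). Mymk had 44.5, 43.2 and 80.2 CPM in siUsf2 1 to 3, against 221, 227 and 236 CPM in siControl 1 to 3. Every siUsf2 library was far below every siControl library, and siUsf2 3 was apart from both sets: its 95% Poisson interval of 71.0 to 90.3 CPM overlaps no other library's. In siUsf2 1 and 2 Mymk averaged 43.8 ± 0.885 CPM (SD, n = 2), 19.2% of the 228 ± 7.54 CPM of siControl (SD, n = 3). This 5.25-fold drop gave a log2 value of -2.39 (SE 0.10, edgeR adjusted p = 7.3e-17). With all 6 libraries it was -2.07 (SE 0.25, edgeR adjusted p = 0.0694), which missed the threshold. DESeq2, limma-voom and the test with no filter on low counts called it in the 6 libraries, with adjusted p from 3.08e-09 to 0.0318, while the highest adjusted p among the alternatives was 0.739.

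Mymx encodes myomixer, a short single-pass protein that acts with myomaker to open the fusion pore. It spans chr17:45600971-45602102 (minus strand, 2 exons). Mymx had 17.0, 23.1 and 27.8 CPM in siUsf2 1 to 3, against 54.6, 63.0 and 58.5 CPM in siControl 1 to 3. The groups did not overlap, the gap between them was wider than the range of either, and siUsf2 3 was the siUsf2 library nearest to siControl. The mean of siUsf2 1 and 2 was 34.2% of the siControl mean, with a log2 change of -1.56 (SE 0.13, edgeR adjusted p = 3.58e-10) in the 5 libraries. It was -1.42 (SE 0.18, edgeR adjusted p = 0.071) in all 6.

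The balance between the fusion proteins' RNAs was compared within libraries. Set per kilobase of exon, the ratio of Mymk to Mymx was 1.78, 1.27 and 1.96 in siUsf2 1 to 3, against 2.75, 2.45 and 2.74 in siControl 1 to 3. The ratio averaged 1.67 ± 0.357 in siUsf2 and 2.65 ± 0.173 in siControl (SD, n = 3 each), with no overlap between the groups, siUsf2 3 included. A two-sided exact permutation test gave p = 0.1, the smallest that 3 against 3 libraries allow, and 0.2 after adjustment over the 4 ratios computed. Another of the 4, Mymk to Cdh15, averaged 0.623 ± 0.112 in siUsf2 and 1.78 ± 0.286 in siControl (SD, n = 3 each). It had the same exact permutation p, before and after adjustment. Without siUsf2 3 the siUsf2 means were 1.52 ± 0.36 for Mymk to Mymx and 0.566 ± 0.0742 for Mymk to Cdh15 (SD, n = 2). The exact permutation p of both was the same there, before and after adjustment.

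Tmem182 encodes a muscle membrane protein that binds integrin beta-1 and restrains fusion, so it acts against the step that Mymk and Mymx drive. It spans chr1:40805601-40856887 (plus strand, 5 exons). Tmem182 had 10.6, 8.71 and 11.4 CPM in siUsf2 1 to 3, against 42.2, 46.1 and 53.1 CPM in siControl 1 to 3. The siUsf2 libraries lay together, siUsf2 3 with them, at about the same distance below siControl. On the log2 scale it was at -2.30 (SE 0.14, edgeR adjusted p = 3.33e-13) in the 5 libraries and -2.24 (SE 0.15, edgeR adjusted p = 0.0392) in all 6. The 6-library call ended when any library other than siUsf2 3 was left out (siUsf2 1 or 2, or siControl 1, 2 or 3; adjusted p from 0.294 to 0.346). It also ended with upper-quartile normalization (adjusted p = 0.0535), within a range of 4.68e-26 to 0.739 over all alternatives. Tmem182 is in the second of the 4 groups by exons per transcript length, whose median shift in siUsf2 3 was -0.235. The part of that downward shift in the siUsf2 3 value of Tmem182 was not tested.

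The inhibitor thus fell beside the fusion proteins. The ratio of Tmem182 to Mymk per kilobase of exon was 0.133, 0.112 and 0.0792 in siUsf2 1 to 3, against 0.106, 0.113 and 0.125 in siControl 1 to 3. These ranges overlap, and the exact permutation test gave p = 0.8 with 6 libraries and p = 0.6 with 5, where the smallest possible is 0.1. Tmem182 and Mymk are in different groups by exons per transcript length. The part of the siUsf2 3 shift in its ratio was not tested.

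Cdh15 encodes M-cadherin, the cadherin most typical of skeletal muscle precursors. It spans chr8:122847966-122867397 (plus strand, 14 exons). Cdh15 had 155, 181 and 234 CPM in siUsf2 1 to 3, against 279, 318 and 243 CPM in siControl 1 to 3. siUsf2 1 and 2 were clear of siControl, whereas siUsf2 3, with a Poisson interval of 218 to 251 CPM, could not be told from siControl 3, with 235 to 250 CPM. Its log2 change stood at -0.75 (SE 0.10, edgeR adjusted p = 1.28e-05) in the 5 libraries, a call that held in the 12 alternatives tried there (highest adjusted p = 7.21e-04). With all 6 libraries it was -0.60 (SE 0.17, edgeR adjusted p = 0.301). Cdh15 is in the group of genes with the most exons per transcript length, where siUsf2 3 was shifted upward; the part of that shift in its value was not tested.

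Promoter sequence was available for Tmem182, Cdh15, Cdon and Adgrb3 (RefSeq, GRCm38.p6, 250 bases before to 50 after the transcription start). The first 2 are shown because both genes fell, and they differ in which of the 2 searched E-box forms they hold. CACGTG, the E-box form that USF proteins prefer, and CAGCTG, a form used by MyoD and myogenin, were searched on both strands; both words read the same on either strand. The Cdh15 window, chr8:122848124-122848423 (plus strand), holds 1 CACGTG, which starts 32 bases before the transcription start of the RefSeq entry, and no CAGCTG. That start, base 122848374, lies inside the gene span given above, and so does the CACGTG. The Tmem182 window, chr1:40805351-40805650 (plus strand), holds 1 CAGCTG, which starts 41 bases before the annotated start, and no CACGTG. Capitals mark the searched form that was found, and other E-box forms were not searched.
Cdh15: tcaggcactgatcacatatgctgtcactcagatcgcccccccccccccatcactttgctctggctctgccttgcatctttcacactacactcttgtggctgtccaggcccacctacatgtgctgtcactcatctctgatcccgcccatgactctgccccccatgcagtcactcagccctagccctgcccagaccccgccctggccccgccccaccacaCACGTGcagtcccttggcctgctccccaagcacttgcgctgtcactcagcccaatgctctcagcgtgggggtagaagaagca
Tmem182: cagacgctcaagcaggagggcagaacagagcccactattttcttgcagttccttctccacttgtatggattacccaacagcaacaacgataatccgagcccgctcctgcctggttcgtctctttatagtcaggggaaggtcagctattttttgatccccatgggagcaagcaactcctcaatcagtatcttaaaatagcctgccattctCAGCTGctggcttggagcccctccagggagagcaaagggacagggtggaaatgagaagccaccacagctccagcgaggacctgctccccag
Of 32851 promoters of the same length, 7.15% hold CACGTG and 16.3% hold CAGCTG. The Adgrb3 and Cdon windows hold neither, and the Cdon window, too, lies at a start inside its gene. A match describes the letters of the window and shows no binding.

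Cdh2 encodes N-cadherin, a cadherin shared with neural and cardiac cells that can act with M-cadherin at myoblast contacts. It spans chr18:16588877-16809246 (minus strand, 16 exons). Cdh2 had 73.2, 79.0 and 84.3 CPM in siUsf2 1 to 3, against 97.3, 87.9 and 102 CPM in siControl 1 to 3. The groups did not overlap, but siUsf2 3, with a Poisson interval of 74.9 to 94.7 CPM, could not be told from siControl 2, with 83.4 to 92.6 CPM. Cdh2 changed by -0.35 log2 units (SE 0.10, edgeR adjusted p = 0.0164) in the 5 libraries and -0.32 (SE 0.09, edgeR adjusted p = 0.316) in all 6. The 5-library call ended without siUsf2 1 (adjusted p = 0.28) and without siControl 1 (adjusted p = 0.0787), in a range of 0.00728 to 0.28 over the alternatives.

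Cdh15 RNA exceeded Cdh2 RNA in every library. Per kilobase of exon the ratio of Cdh15 to Cdh2 was 5.24, 5.69 and 6.88 in siUsf2 1 to 3, against 7.11, 8.98 and 5.88 in siControl 1 to 3. The ranges overlap (exact permutation p = 0.2 with 6 libraries and with 5, smallest possible 0.1). The size of the ratio depends on the exon length used.

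Ncam1 encodes the neural cell adhesion molecule, an immunoglobulin-type receptor of myoblasts and young myotubes. It spans chr9:49502136-49798925 (minus strand, 20 exons). Ncam1 had 252, 255 and 252 CPM in siUsf2 1 to 3, against 312, 291 and 345 CPM in siControl 1 to 3. The siUsf2 values were nearly the same in all 3 libraries, siUsf2 3 included, and the spread lay in siControl. Ncam1 changed by -0.33 log2 units (SE 0.09, edgeR adjusted p = 0.0138) in the 5 libraries and -0.35 (SE 0.09, edgeR adjusted p = 0.26) in all 6. The 5-library call ended without siUsf2 1 (adjusted p = 0.184), siUsf2 2 (adjusted p = 0.0849) or siControl 1 (adjusted p = 0.0584), in a range of 0.00412 to 0.184 over the alternatives. An antisense gene, Gm11149, covers 4.81% of its exon bases; it held at most 26 counts in any library, and whether the counting used strand is not given in the sources used here.

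Cdon and Boc are related surface receptors that form complexes with N-cadherin, promote MyoD activity at cell contacts and also serve as Hedgehog co-receptors. Cdon (chr9:35421128-35507652, plus strand) had 464, 487 and 402 CPM in siUsf2 1 to 3, against 433, 403 and 467 CPM in siControl 1 to 3. The groups overlapped, and siUsf2 3 and siControl 2, the lowest, differed by less than their counting error. Cdon was at a log2 value of 0.12 (SE 0.09, edgeR adjusted p = 0.424) in the 5 libraries and 0.03 (SE 0.12, edgeR adjusted p = 0.953) in all 6. Boc (chr16:44485049-44558897, minus strand) had 21.2, 19.8 and 22.0 CPM in siUsf2 1 to 3, against 19.7, 18.2 and 15.6 CPM in siControl 1 to 3. Each siUsf2 value was above each siControl value, though siUsf2 2 and siControl 1 differed by less than their counting error. Of all genes tested, 11.4% lay higher without overlap in the 6 libraries and 21.8% in the 5. The log2 fold change of Boc did not pass, at 0.19 (SE 0.14, edgeR adjusted p = 0.437) in the 5 libraries and 0.20 (SE 0.13, edgeR adjusted p = 0.6735) in all 6.

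Adgrb1 and Adgrb3 encode the adhesion receptors BAI1 and BAI3, which pass signals to ELMO and DOCK proteins and promote fusion in mouse myoblasts. Adgrb1 had 0 counts in the 3 siUsf2 libraries, against 2 counts in siControl 1 and 0 in siControl 2 and 3. Adgrb3 had 0 counts in the siUsf2 libraries, against 1 count in siControl 3 and 0 in siControl 1 and 2. A count of 0 over the siUsf2 libraries together allows up to 0.0878 CPM (3 counts). Neither gene had more than 2 counts in any library at this depth, and no fold change is given.

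**Figure D2:**
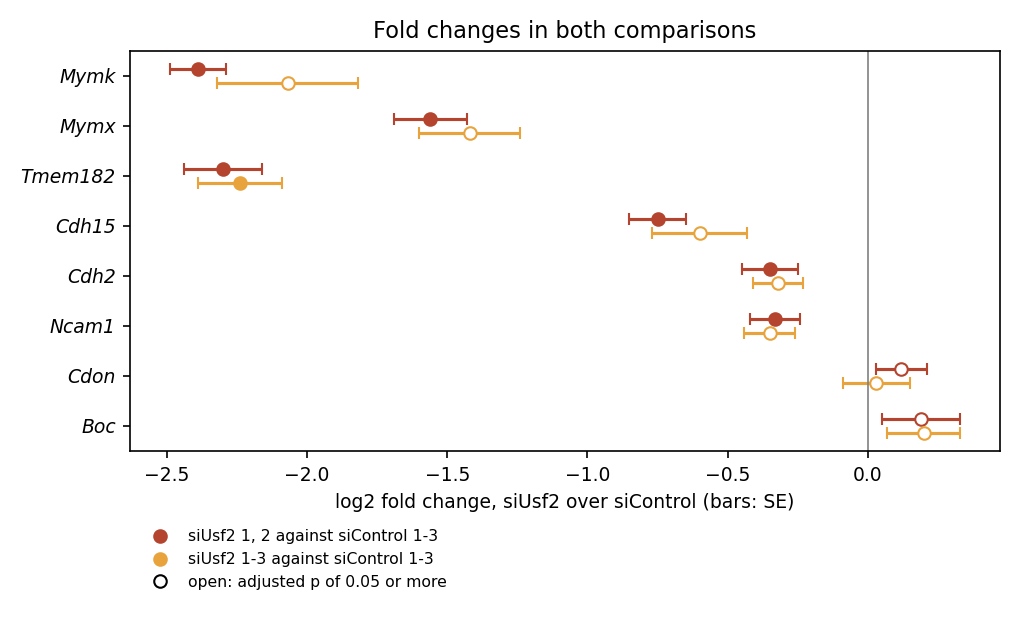
Log2 fold change of siUsf2 over siControl (bars, SE) for each measured gene, over 5 libraries (siUsf2 1 and 2, red) and over all 6 (orange); filled symbols have an edgeR adjusted p below 0.05. Mymk, Mymx and Tmem182 lie between -2.39 and -1.42, the cadherins and Ncam1 between -0.75 and -0.32, and Cdon and Boc just above 0.

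The order of levels among the genes differed between the groups. Per kilobase of exon, Mymk averaged 29.0 ± 0.586 CPM in siUsf2 1 and 2 (SD, n = 2), against 151 ± 4.99 CPM in siControl (SD, n = 3), where it was the highest of the 8. In siUsf2 1 and 2 the highest was Cdon, at 61.7 CPM per kilobase, followed by Cdh15 at 51.6, Ncam1 at 29.3, Mymk at 29.0, Mymx at 19.5, Cdh2 at 9.43, Boc at 4.60 and Tmem182 at 3.56. In siControl the order after Mymk was Cdh15 at 86.1, Mymx at 57.2, Cdon at 56.3, Ncam1 at 36.5, Tmem182 at 17.4, Cdh2 at 11.9 and Boc at 4.01 CPM per kilobase. The libraries' ranges overlapped for Ncam1 and Mymk in siUsf2 1 and 2, and for Mymx and Cdon in siControl. The order rests on the union of a gene's exons, which is longer than the longest transcript for some genes, Cdh2 among them. Another length could change the order of near values, such as Tmem182 and Cdh2 in siControl. In the library labelled siUsf2 3 Cdh15 was highest, at 72.0 CPM per kilobase, with Mymk at 53.1 and Cdon at 52.2.

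All 3 siUsf2 libraries were below all siControl libraries for 6 of the 8 genes, against 11.2% of all genes tested. For Cdh15 and Cdh2, however, siUsf2 3 differed from the lowest siControl library by less than counting error. How far siUsf2 3 stood from siUsf2 1 and 2 differed by gene. Its level was 24.2% of the siControl mean for Tmem182, where siUsf2 1 and 2 averaged 20.5%. The corresponding values were 79.8% and 80.2% for Ncam1. It was 35.2% for Mymk, where siUsf2 1 and 2 averaged 19.2%, and 83.6% for Cdh15, where they averaged 60.0%. For Mymx it was 47.4%, where they averaged 34.2%. Mymk is in the third of the 4 groups by exons per transcript length, whose median shift was -0.01, and its own log2 ratio to siUsf2 1 and 2 was 0.87. A median does not give the spread of single genes, and the part of that shift in the Mymk value was not tested.

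**Figure D3:**
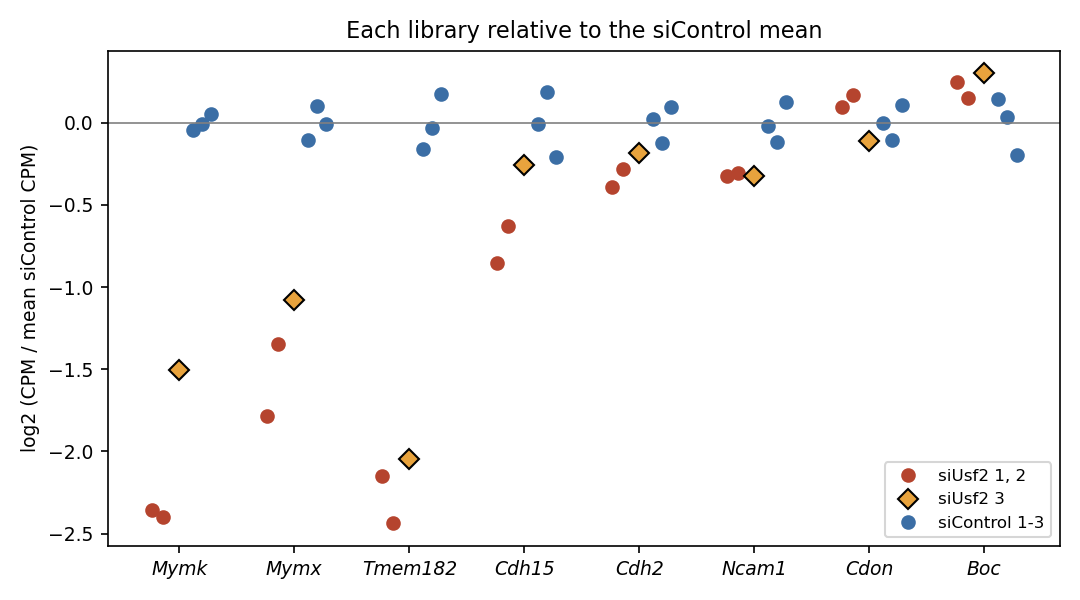
Log2 of the CPM in each library over the mean siControl CPM, for each measured gene; red circles are siUsf2 1 and 2, diamonds the library labelled siUsf2 3 and blue circles siControl 1 to 3. The diamond lies beside the red circles for Tmem182 and Ncam1 and above them for Mymk, at -1.51, Mymx, at -1.08, and Cdh15, at -0.26.

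The summed level of 6 differentiation markers was lower in every siUsf2 library too. Myog, Myh3, Acta1, Ckm, Tnnt3 and Actc1 summed to 794, 887 and 1631 CPM in siUsf2 1 to 3, against 3587, 3655 and 3849 CPM in siControl 1 to 3. Of these, 5 were below siControl in every siUsf2 library. Tnnt3, fast troponin T, was the exception, with 17.3, 13.5 and 92.8 CPM in siUsf2 1 to 3, against 47.9, 42.9 and 43.3 CPM in siControl 1 to 3. Tnnt3 has 16.7 exons per kilobase of transcript, against 4.31 for Cdh15, and siUsf2 3 was shifted upward among genes with the most. The part of that shift in the Tnnt3 value was not tested. The markers' part in the results above was not tested. In bulk RNA, fewer cells expressing a gene and less of its RNA per cell cannot be told apart. The genes whose pattern was most like that of Mymk over the 6 libraries, by Pearson r of log2(CPM + 1) among 9952 genes, were Tmem38a, Erbb3, Ckm, Hfe2 and Acta1, at r from 0.997 to 0.9985. All of them, too, were higher in siUsf2 3 than in siUsf2 1 and 2: Ckm, muscle creatine kinase, had 9.80, 10.0 and 20.2 CPM in siUsf2 1 to 3, against 57.7, 52.4 and 62.6 CPM in siControl 1 to 3. For Mymx they were Chrnd, Rbm24, Spry1, Synpo2l and Prkar1a (r from 0.9956 to 0.9982), and for Tmem182 Rnf217, Hrc, Tor3a, C1qtnf3 and Lgals3bp (r from 0.9888 to 0.9958). These coefficients rest on 6 points that fall into 2 groups, so they describe likeness of pattern only.

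Other genes of the fusion pathway were counted in 4 further lists of 94 genes. In the 5 libraries 83 were tested, of which 6 rose, 4 fell and 73 did not pass, a share of calls close to the 11.4% of all genes tested. With all 6 libraries 0 of 81 passed by edgeR, with 6 at an unadjusted p below 0.05; limma-voom called 0 and DESeq2 2. Of the 10 calls in the 5 libraries, only that of Ano5 held under each of the 12 alternatives. The other 9 ended without siUsf2 1. Of those, 7 also ended without siUsf2 2, 7 without siControl 1, 6 without siControl 2 and 1 without siControl 3.

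Among 25 membrane and secreted factors, 3 fell, 0 rose and 21 of 24 tested did not pass, with a median log2 fold change of 0.03. Ano5, a lipid scramblase family protein of muscle needed for fusion in mouse myoblasts, had 7.59, 7.97 and 6.44 CPM in siUsf2 1 to 3, against 14.4, 14.9 and 17.0 CPM in siControl 1 to 3. All siUsf2 libraries were below siControl, with a 5-library log2 value of -1.0 (SE 0.17, edgeR adjusted p = 1.55e-04). Cd36, a scavenger receptor for fatty acids, had 1.83, 1.61 and 2.05 CPM in siUsf2 1 to 3, against 3.45, 2.81 and 4.74 CPM in siControl 1 to 3 (log2 fold change -1.11, edgeR adjusted p = 0.0304). Cd82, a tetraspanin, was at -0.29 in the 5 libraries, but the library labelled siUsf2 3, at 434 CPM, was above every siControl library. The Cd36 and Cd82 calls also ended with DESeq2 and with limma-voom, that of Cd36 with the replicate block (adjusted p = 0.0712), and that of Cd82 with RLE or upper-quartile normalization and the filter of 1 CPM. Anxa1, a phospholipid-binding annexin, had 146, 150 and 484 CPM in siUsf2 1 to 3, against 118, 120 and 130 CPM in siControl 1 to 3. Its log2 value was 0.26 in the 5 libraries (edgeR adjusted p = 0.0524) and 1.03 in all 6 (edgeR adjusted p = 0.572), with siUsf2 3 far above the rest. Anxa1 and Cd82 have 7.77 and 5.48 exons per kilobase of transcript, and siUsf2 3 was shifted upward among genes with the most. The part of that shift in their siUsf2 3 values was not tested.

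Among 21 ligands and partners of the receptors, 2 rose, 1 fell and 11 of 14 tested did not pass, with a median of 0.07. Ptch1, the Hedgehog receptor and itself a Hedgehog target gene, had 46.5, 39.2 and 33.7 CPM in siUsf2 1 to 3, against 32.0, 28.2 and 28.2 CPM in siControl 1 to 3 (5-library log2 fold change 0.53, SE 0.11, edgeR adjusted p = 0.002). Gas1, a Hedgehog-binding protein that works with Cdon and Boc, fell, at -0.30 (edgeR adjusted p = 0.038), but in siUsf2 3 it was within the siControl range, and the call ended with upper-quartile normalization (adjusted p = 0.0666). Spag9, a kinase scaffold that binds Cdon, rose by 0.27 log2 units, with siUsf2 3 within the siControl range (edgeR adjusted p = 0.0392), and Abl1, a kinase that binds Cdon, was at 0.21 (edgeR adjusted p = 0.127).

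Among 27 genes of the actin and GTPase machinery, 3 rose, 0 fell and 24 did not pass, with a median of 0.01. Dock5, a Rac exchange factor, rose by 0.31 log2 units (edgeR adjusted p = 0.0214) and Actr2, an Arp2/3 subunit, by 0.28 (edgeR adjusted p = 0.0305). In siUsf2 3 Dock5 and Actr2 were above every siControl library. Trio, another exchange factor, was at -0.22 (edgeR adjusted p = 0.124).

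Among 21 other contact molecules, 1 rose, 0 fell and 17 of 18 tested did not pass, with a median of 0.00. The one that rose was Alcam, an immunoglobulin-type adhesion molecule, at 0.42 (edgeR adjusted p = 0.0103), with siUsf2 3 within the siControl range. Cdh11, another cadherin of mesenchymal cells, was at -0.22 (edgeR adjusted p = 0.154), Jup, plakoglobin, at -0.21 (edgeR adjusted p = 0.157) and Cdh13, T-cadherin, at 0.18 (edgeR adjusted p = 0.197).

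**Figure D4:**
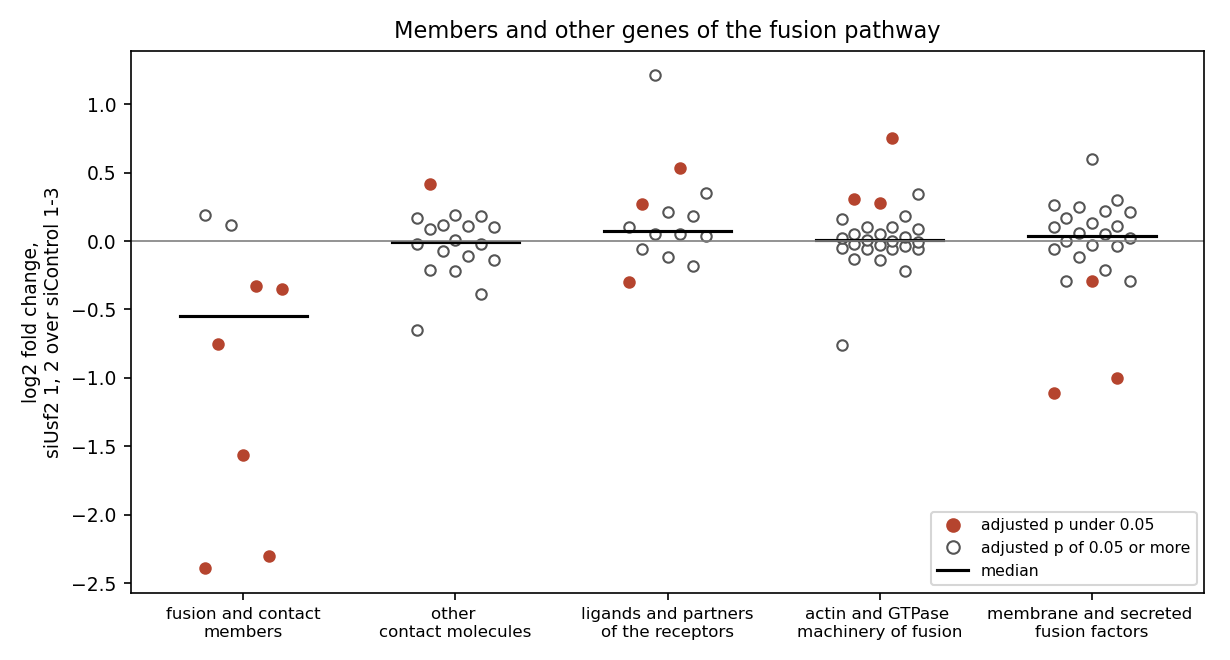
Log2 fold change of siUsf2 1 and 2 over siControl 1 to 3 for the 8 measured fusion and contact genes and for 4 further lists of fusion genes; each symbol is 1 gene, filled red where the edgeR adjusted p is below 0.05, and lines are medians. The medians of the 4 lists lie between 0.00 and 0.07, and that of the 8 genes at -0.55.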

How the data were processed

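The authors' deposited table holds raw counts of reads for each mouse Ensembl gene. The submitters' processing notes list build mm10 and, as tools, HISAT2, featureCounts, FastQC, Trimmomatic and DESeq2. No version, strand setting or annotation is given in the sources used here. The other deposited table, with scaled values, was left out. Total counts were 3414565 to 17715250 per library. Symbols, coordinates and exon lengths came from GENCODE M21 (GRCm38), which matched 52133 of 55414 identifiers.

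Counts were tested with edgeR 4.0.16 in R 4.3.3 (filterByExpr, TMM, robust quasi-likelihood test, two-sided, Benjamini-Hochberg adjustment over all genes tested), over 6 libraries and over 5 without siUsf2 3. SE is the absolute log2 fold change over the square root of F. CPM uses the total count, and counts per kilobase use the union of a gene's exons. Intervals are exact Poisson at 95%, and they and the limit for a count of 0 cover counting error only. Alternatives were DESeq2 1.42.0, limma-voom 3.58.1, upper-quartile and RLE normalization, 2 other filters, a replicate block and each library left out. The test was tried on simulated counts. No other gene matched a member's transcripts over 150 bases at 90% identity (minimap2 2.31).

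The 10 genes, the lists, the ratios and the use of 5 libraries were chosen with earlier results of these data known. The text names all 10 genes, the 4 genes of smallest 5-library p in each further list, and the 5 nearest in pattern (mean log2 CPM of at least 3, predicted gene models left out) to Mymk, Mymx and Tmem182; 1 gene of the actin and GTPase list that this rule names is not reported here. Within each group no library was a copy of another (their counts over genes gave a chi-square of 4.38 to 103 for each degree of freedom).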

Additional observations from a re-analysis of the deposited data

How the results depend on the processing

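In the 5 libraries, 4 to 6 of the 8 genes were called when each library was left out and 6 under each of the other alternatives; the called genes kept a negative log2 fold change throughout. The lone siUsf2 library left without siUsf2 1 or siUsf2 2 is assumed to vary like siControl. With all 6 libraries, where 1 of the 8 was called, upper-quartile normalization called 0, DESeq2 4, limma-voom 3, the test with no filter 3 and the replicate block 0. Leaving out each library there called 0 to 6, the 6 being without siUsf2 3. Over all genes in the 6 libraries, where 7 were called, RLE normalization and the filter of 1 CPM in 3 libraries called 4 each, upper-quartile normalization 0 (1835 at an unadjusted p below 0.05), limma-voom 104, the test with no filter 116 and DESeq2 706; leaving out each library called 0 to 1957. Over all genes in the 5 libraries, where 1957 were called, leaving out each library moved the count by over 1.5 times, to between 868 (without siUsf2 1) and 3560 (without siControl 3), and upper-quartile normalization made 55.5% of calls higher ones, against 43.7%. Cdon, which was never called, turned sign in the 6 libraries without siUsf2 2 (log2 fold change -0.04) and without siControl 2 (-0.03), in a range of -0.04 to 0.12 over the libraries left out. The cause of these differences was not tested.

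Whether the replicate numbers mark paired libraries was left undecided. Deviations from the group means correlated at -0.07, -0.01 and -0.07 between same-numbered libraries, and no siUsf2 library correlated best with its own number. The siUsf2 mean included siUsf2 3, which lay far from the other siUsf2 libraries. Its chi-square against each was 103 for each degree of freedom, where that between them was 4.38. Deviations in siUsf2 therefore mainly set siUsf2 3 against the others, so the check could not show a pairing. The replicate block called 0 genes in the 6 libraries (874 at an unadjusted p below 0.05), none of the 8 among them, and 3989 in the 5 libraries, including the same 6 of the 8. In the 5 libraries siControl 3 had no partner in the block. The blocked 5-library test thus rested on siUsf2 1 and 2 and siControl 1 and 2 alone. Depth limits Adgrb1 and Adgrb3, and siUsf2 3 most: a count of 0 there allows up to 0.879 CPM.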
